A study of Rattus norvegicus with 14 samples.

Results

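The calcium/calmodulin-dependent protein kinases were examined in rat dentate gyrus, the entry station of the hippocampus, where cortical fibres reach the granule cells. The family was taken as 8 genes: the 4 subunits of the type II kinase (Camk2a, Camk2b, Camk2d and Camk2g), the kinases Camk1 and Camk4, and the upstream kinases Camkk1 and Camkk2. Every probe set whose only gene symbol in the platform annotation was one of these names was used. This gave 15 of the 15866 probe sets other than controls, and 8 of 10411 single-symbol genes.

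The tissue came from 14 male Long-Evans rats of 3 to 4 months, with RNA of each rat on its own short-oligonucleotide array. The 7 learning rats had 1 session of 8 trials in a new pool with a visible platform in a fixed place and with orienting cues. The 7 control rats swam the same number of trials with a visible platform that changed place and with no informative cues. All 14 rats had been trained in a standard water maze 2 to 3 weeks before, and all had a probe swim of 90 s an hour after the session, at the end of which tissue was taken. The control rats therefore differed in what could be learned and not in having swum. Whole microdissected tissue was used, so fewer cells of a type and less RNA per cell cannot be told apart.

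As background, calcium entering a neuron binds calmodulin, and the complex switches on these kinases. The type II kinase is a ring of many subunits, mostly alpha and beta in forebrain neurons. A subunit can phosphorylate its neighbour and so stay active after calcium has fallen, and this kinase is required for many forms of long-term potentiation at hippocampal synapses. In a second branch, the kinase kinases activate Camk1 in the cytoplasm and Camk4 in the nucleus. Camk4 phosphorylates the transcription factor CREB.

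Each probe set has a log2 value on each array, so a difference of 1 is a doubling. Different probe sets bind with different strength, and their levels are not set against each other here. A probe set was tested if its mean over the 14 arrays was at least 4, a filter that 10 of the 15 kinase probe sets passed, from 7 of the 8 genes. Camk4 was the gene with no tested probe set. Arrays were alike, with medians between 5.09 and 5.12 and correlations between 0.995 and 0.998 for every pair. The granule cell marker Prox1 averaged 10.3 over the 14 arrays and Calb1 averaged 10.8, so markers of the labelled tissue were present.

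Camk2a encodes the alpha subunit, the main plasticity-related subunit of the type II kinase, and it was the family member with the largest difference. Probe set 1388187_at was at 10.1, 10.3 and 11.0 in learning rats (lowest, median and highest of 7) and at 9.17, 9.90 and 10.4 in control rats (lowest, median and highest of 7). Every learning rat lay above the control median and 2 lay above the highest control rat. Of the control rats, 4 lay below the lowest learning rat, so the groups overlapped in the remaining 3.

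The mean of this probe set was 10.4 ± 0.33 in learning rats and 9.81 ± 0.51 in control rats (SD, n = 7 each). The difference was 0.59 ± 0.21 log2 units (SE), or 1.51-fold, with a 95% confidence interval from 0.15 to 1.04. The unadjusted p in limma's moderated test was 0.0123 and the p adjusted over all tested probe sets was 0.263, so the difference did not pass. A difference of at least this size in either direction was seen in 21 tested probe sets, or 0.224% of them. The SE was above the median of 0.08 over tested probe sets, and 13.1% of these had an unadjusted p below 0.05 in limma.

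**Figure D1:**
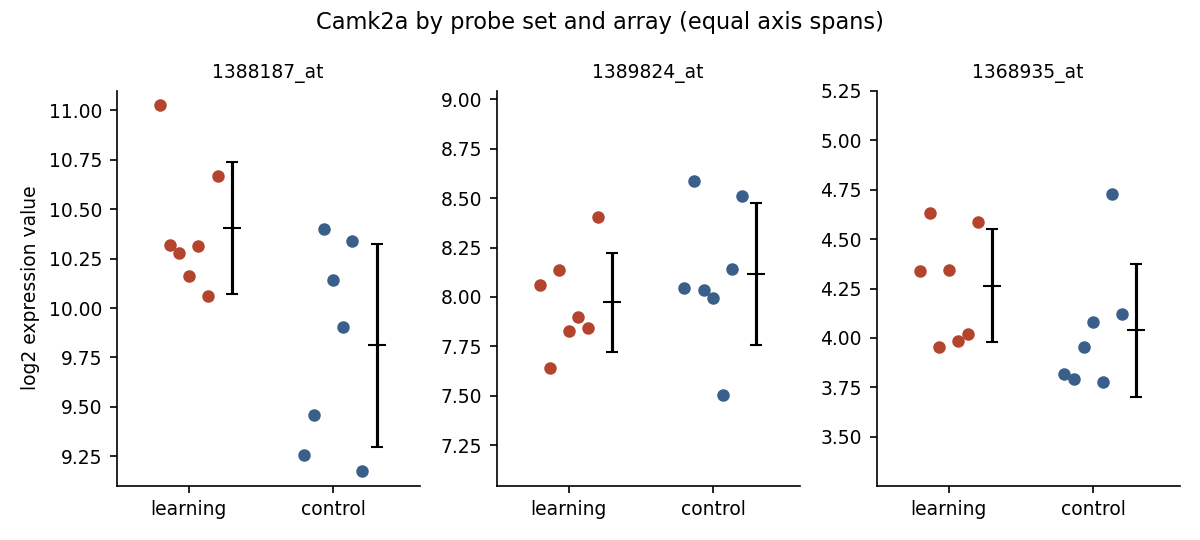
Log2 expression values of the 3 Camk2a probe sets, 1 point per rat in order of replicate number, learning rats left and control rats right in each panel, with mean and SD as bars; axes span the same number of log2 units. In 1388187_at the 7 learning rats lie from 10.1 to 11.0 and the control rats from 9.17 to 10.4, while in 1389824_at the learning mean of 7.97 is below the control mean of 8.12.

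The other Camk2a probe sets gave different answers. Probe set 1389824_at was at 7.64, 7.90 and 8.40 in learning rats and at 7.50, 8.04 and 8.59 in control rats (lowest, median and highest of 7 each). All learning values lay inside the control range. The difference was -0.14 ± 0.15 (SE), with a 95% confidence interval from -0.47 to 0.18 (adjusted p = 0.690 in limma). It was -0.066 without control replicate 2, -0.078 without control replicate 7, -0.089 without learning replicate 2, -0.22 without learning replicate 7 and -0.25 without control replicate 5.

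The dimmest Camk2a probe set, 1368935_at, was at 3.96, 4.34 and 4.63 in learning rats and at 3.77, 3.95 and 4.73 in control rats (lowest, median and highest of 7 each). Every learning rat lay above the control median, but the highest value of all belonged to control replicate 6. The difference was 0.23 ± 0.15 (SE), with a 95% confidence interval from -0.10 to 0.55 (adjusted p = 0.533 in limma). Without control replicate 6 it was 0.34 (unadjusted p = 0.0127, adjusted p = 0.226 in limma). Its mean of 4.15 over the 14 arrays is just above the filter, where the background correction compresses differences.

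With all 3 probe sets averaged into 1 value per rat, the Camk2a difference was 0.23 (adjusted p = 0.439 in limma). The size given for Camk2a therefore depends on which probe set stands for the gene. Probe set 1368935_at was designed from a RefSeq mRNA, and 1388187_at and 1389824_at from expressed sequence tags. Which stretch of the transcript each one reads was not analysed here.

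The disagreement was measured directly as the gap between 2 probe sets on the same array, which removes what both share. Gaps were computed for all 1338 pairs of tested probe sets with the same gene symbol, from 922 genes. The gap of 1388187_at over 1389824_at was 2.43 ± 0.29 log2 units in learning rats and 1.69 ± 0.75 in control rats (SD, n = 7 each). Its learning minus control difference was 0.74 ± 0.27 (SE), with a 95% confidence interval from 0.17 to 1.30. The unadjusted p was 0.0138, and the p adjusted over all 1338 pairs was 0.219 in limma.

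The learning rats lay between 2.14 and 2.97 in this gap. Of the control rats, 4 lay between 2.15 and 2.40, inside the learning range. Control replicates 1, 2 and 7 lay at 1.21, 0.87 and 0.66, below every learning rat. These 3 rats were also the 3 lowest in 1388187_at, and replicates 2 and 7 were the 2 highest of all 14 in 1389824_at.

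**Figure D2:**
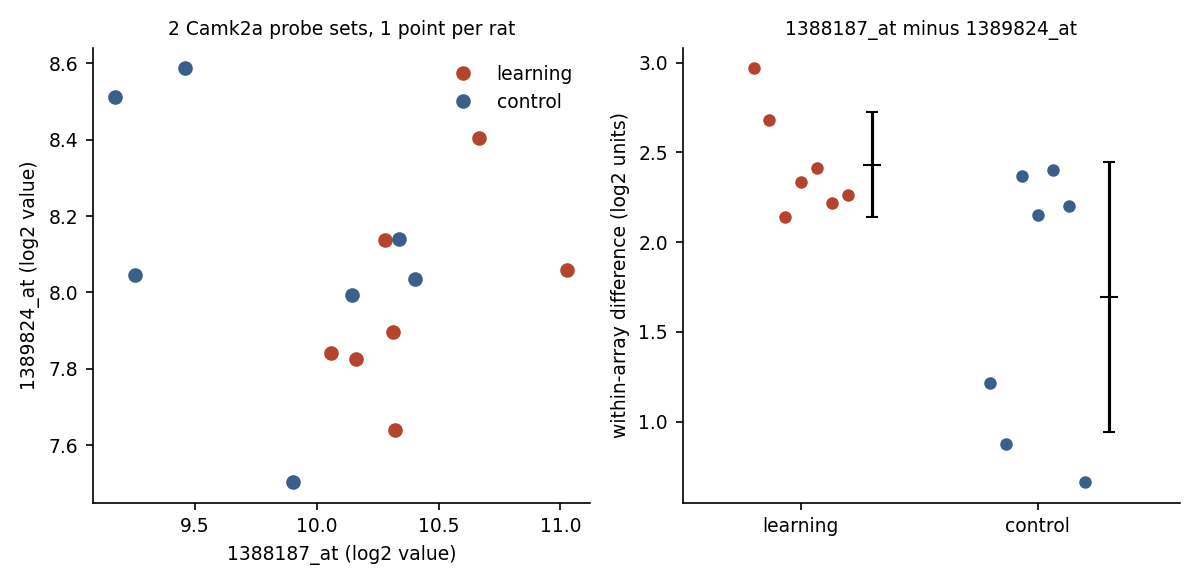
Left, log2 value of probe set 1389824_at against that of 1388187_at, 1 point per rat; right, the within-array gap between them in log2 units by group, learning left and control right, with mean and SD as bars. Of the 7 control rats, 4 have gaps between 2.15 and 2.40, within the learning range, and 3 have gaps between 0.66 and 1.21.

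Compared with other genes, this gap changed by a large amount in size. The median absolute difference over all pairs was 0.13 and the 95th percentile was 0.42. A difference at least as large as that of the Camk2a pair was reached by 5 pairs, or 0.374%, with the Camk2a pair itself included. This pair is the largest of the 3 Camk2a pairs, and the kinases were chosen with earlier results of these data known. Its rank is therefore a description and not a test. The other Camk2a pairs differed by 0.37 ± 0.20 for 1388187_at over 1368935_at (adjusted p = 0.384) and by -0.37 ± 0.20 for 1389824_at over 1368935_at (adjusted p = 0.382; SE, limma). Both sizes exceed the 90th percentile of 0.34. The first was 0.19 with the beta-actin and 0.58 with the microglial covariate and 0.25 without control replicate 7, and the second was -0.54 with the beta-actin, -0.21 with the granule cell and -0.23 with the microglial covariate. None of the Camk2a pairs was among the pairs that passed an adjusted p of 0.05, which made up 0.523% of all pairs. Of the 3 Camk2a pairs 1 had an unadjusted p below 0.05, where the share over all pairs was 15.8%.

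**Figure D3:**
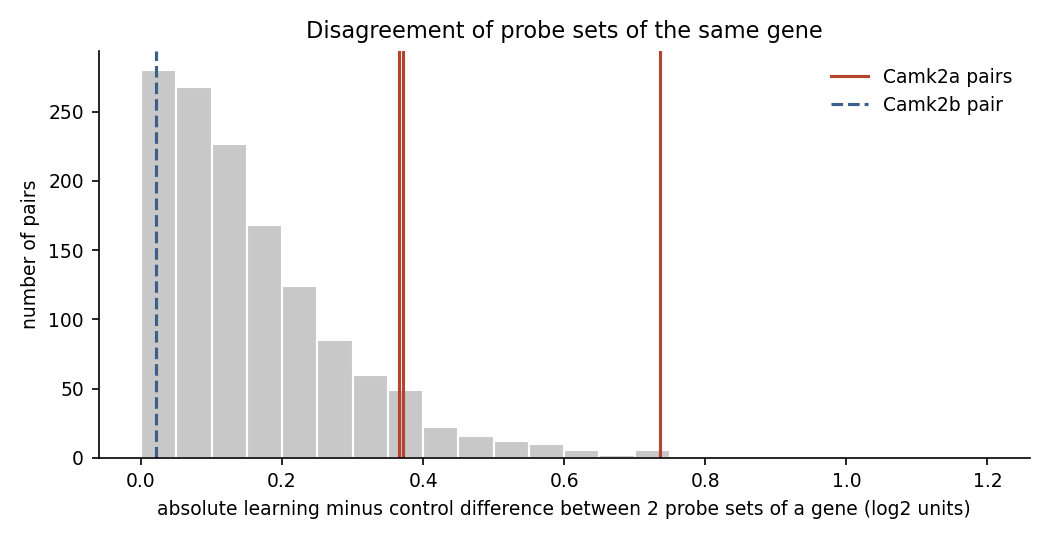
Number of same-gene probe set pairs (vertical axis) by the absolute learning minus control difference of their within-array gap in log2 units (horizontal axis), for all 1338 pairs; solid lines mark the 3 Camk2a pairs and the dashed line the Camk2b pair. The Camk2a lines stand at 0.37, 0.37 and 0.74, to the right of the median of 0.13, and the Camk2b line stands at 0.02.

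From rat to rat within groups, 1 pair of Camk2a probe sets had a higher Pearson r than most same-gene pairs, and the other pairs did not. No Camk2a pair had a permutation p below 0.05. With group means removed, 1388187_at and 1389824_at had a Pearson r of -0.15 over the 14 arrays (permutation p = 0.652, adjusted over all pairs 0.894) and a Spearman rho of -0.16 (permutation p = 0.616). For 1388187_at and 1368935_at, r was 0.43 (permutation p = 0.155, adjusted 0.552) and rho was 0.27 (permutation p = 0.354). For 1389824_at and 1368935_at, r was 0.11 (permutation p = 0.722, adjusted 0.915) and rho was 0.07 (permutation p = 0.813). Without the 2 arrays farthest from the median of the brighter probe set, these r values were -0.0025, 0.49 and 0.10. Low agreement was common on these arrays, since the median r over all pairs was 0.16, the 75th percentile was 0.41 and 32.0% of pairs had an r below 0. The r of 0.43 for 1388187_at and 1368935_at lay above that 75th percentile, and the other Camk2a pairs lay below the median.

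Camk2b encodes the beta subunit, which ties the type II kinase to actin filaments, and both of its probe sets were steady. Probe set 1398251_a_at was at 12.1, 12.3 and 12.6 in learning rats and at 12.2, 12.3 and 12.5 in control rats (lowest, median and highest of 7 each), a difference of 0.02 ± 0.07 (SE). Probe set 1375575_at was at 11.5, 11.5 and 11.7 in learning rats and at 11.4, 11.5 and 11.6 in control rats (lowest, median and highest of 7 each), a difference of 0.04 ± 0.05 (SE). The groups overlapped almost fully in both. The 95% confidence intervals ran from -0.13 to 0.16 and from -0.07 to 0.15, so differences as large as 0.2 in either direction lie outside both.

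The adjusted p values in limma were 0.930 and 0.769. The gap between the Camk2b probe sets differed by -0.02 ± 0.10 between the groups (SE; adjusted p = 0.934 in limma over all pairs). Their r within groups was -0.27 over the 14 arrays (permutation p = 0.362, adjusted 0.737), their rho -0.23 (permutation p = 0.453), and r without the 2 farthest arrays -0.29. All values of 1375575_at lay within 0.28 log2 units.

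Camk2g encodes the gamma subunit, which carries calcium and calmodulin to the nucleus in neurons. Its single probe set, 1369993_at, was at 9.73, 9.94 and 10.05 in learning rats and at 9.62, 9.84 and 10.02 in control rats (lowest, median and highest of 7 each). The difference was 0.09 ± 0.07 (SE; adjusted p = 0.591 in limma), with 5 learning rats above the control median.

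Camk2d encodes the delta subunit, best known as the main form in heart. Its tested probe set, 1368834_at, was at 5.22, 5.34 and 5.40 in learning rats and at 5.15, 5.40 and 5.72 in control rats (lowest, median and highest of 7 each). All 7 learning rats lay below the control median, within a narrower range than the control rats. The difference was -0.08 ± 0.07 (SE; adjusted p = 0.617 in limma), -0.03 without control replicate 5, the highest control rat, and -0.13 without control replicate 7. The other Camk2d probe sets did not pass the filter. Probe set 1371263_a_at, with a mean of 3.86 just below it, averaged 3.85 in learning rats and 3.87 in control rats, and 1368833_at averaged 1.40 in both groups.

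Camk1 encodes a cytoplasmic kinase with a part in axon and dendrite growth, and it was the member with the largest difference towards lower values in learning rats. Probe set 1367889_at was at 6.20, 6.27 and 6.84 in learning rats and at 6.17, 6.65 and 6.89 in control rats (lowest, median and highest of 7 each). Of the learning rats 6 lay below the control median, although the lowest value of all came from a control rat. The difference was -0.22 ± 0.13 (SE), with a 95% confidence interval from -0.50 to 0.05 and an adjusted p of 0.482 in limma.

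Both Camk4 probe sets were below the filter, so no test was made for the nuclear kinase. Probe set 1369752_a_at averaged 3.61 in learning rats and 3.66 in control rats, and all 14 values lay within 0.31 log2 units. Probe set 1369753_at averaged 2.72 in learning rats and 2.82 in control rats, with 1 rat of each group well above the others, at 3.20 for learning replicate 1 and 3.69 for control replicate 7. Values this low lie near background, so they say little about the Camk4 transcript.

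Camkk1 encodes the alpha form of the kinase kinase, which activates Camk1 and Camk4. Probe set 1368156_at was at 10.5, 10.9 and 11.3 in learning rats and at 10.7, 10.8 and 10.9 in control rats (lowest, median and highest of 7 each). The groups differed less in their means than in their spread: 4 learning rats lay above every control rat and 2 lay below every control rat. The SD was 0.28 in learning rats and 0.07 in control rats, a ratio of 4.07. The median ratio over all tested probe sets was 1.06, and 1.72% had a ratio at least as large as that of Camkk1. This ratio was chosen for description after the values had been seen, and it was not tested.

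The difference of the Camkk1 means was 0.13 ± 0.10 (SE; adjusted p = 0.610 in limma). It was 0.06 without learning replicate 5, the highest rat, and 0.20 without learning replicate 1, the lowest (unadjusted p = 0.0404, adjusted p = 0.331 in limma). Camkk2 encodes the beta form, which also activates AMP-activated kinase. Its tested probe set, 1368753_at, was at 5.09, 5.43 and 5.76 in learning rats and at 5.17, 5.49 and 5.66 in control rats (lowest, median and highest of 7 each). The difference was 0.01 ± 0.10 (SE; adjusted p = 0.968 in limma). The other Camkk2 probe set, 1375025_at, did not pass the filter and averaged 2.45 in learning rats and 2.44 in control rats.

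**Figure D4:**
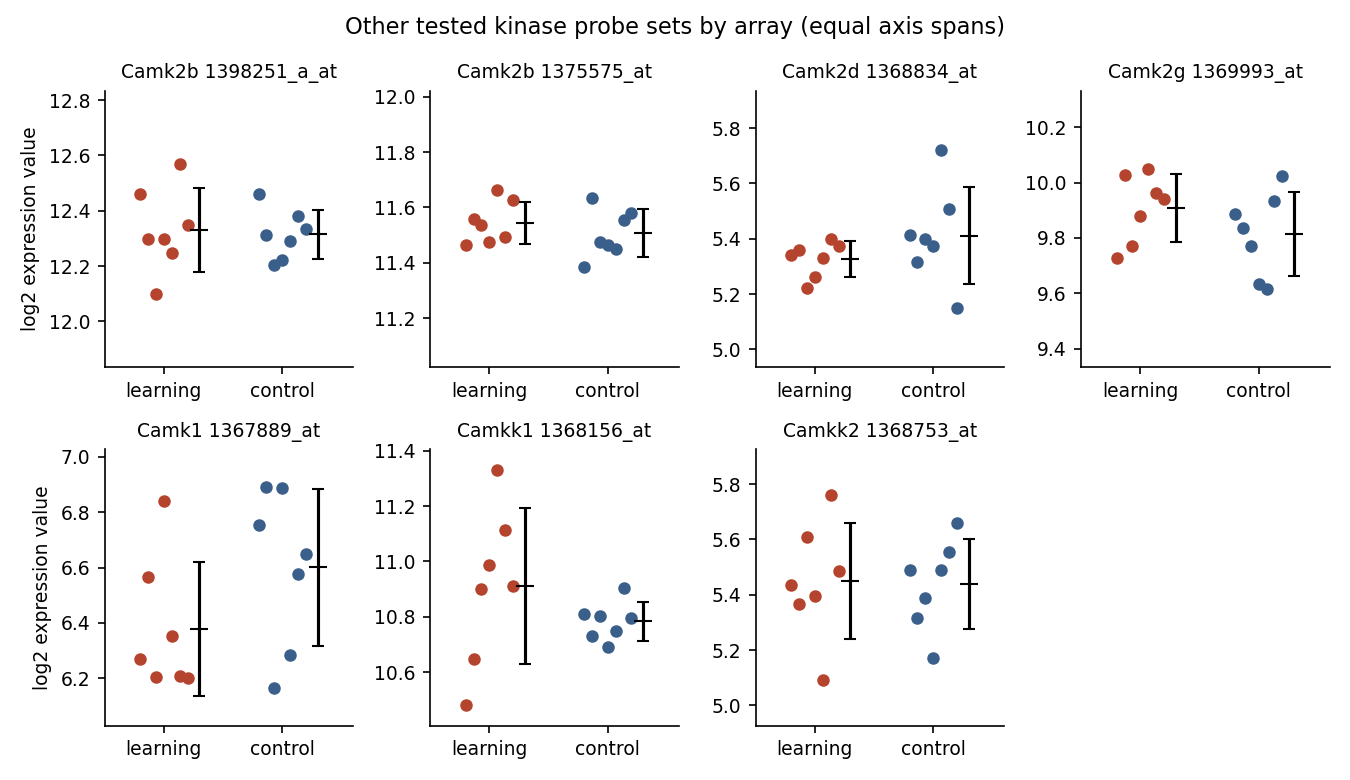
Log2 expression values of the 7 tested probe sets of Camk2b, Camk2d, Camk2g, Camk1, Camkk1 and Camkk2, 1 point per rat in order of replicate number, learning rats left and control rats right, with mean and SD as bars; axes span the same number of log2 units. The groups overlap in every panel, and Camkk1 is more spread in learning rats (SD 0.28) than in control rats (SD 0.07).

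Over the family, 7 tested probe sets had higher means and 3 lower means in learning rats. In limma 0 of the 10 passed an adjusted p of 0.05, where 0 of all 9387 tested probe sets passed, a background of 0%. At an unadjusted p below 0.05, 1 of the 10 was higher in learning rats and 0 were lower. Over all tested probe sets the shares at that level were 6.43% higher and 6.67% lower, together 13.1%, so 1 in 10 is near the background. The groups overlapped in all 10, and 0.405% of all tested probe sets had groups that did not overlap. With the brightest probe set for each gene, the median difference of the 7 tested genes was 0.02 and the median absolute difference 0.09, against 0.0018 and 0.08 over all 6697 genes tested.

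**Figure D5:**
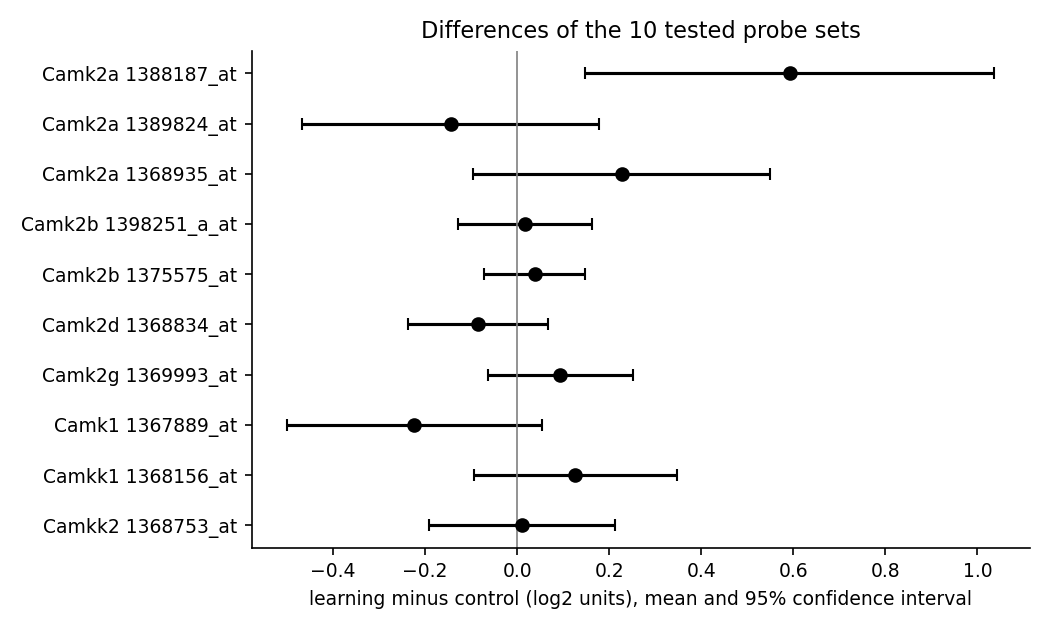
Learning minus control difference in log2 units (horizontal axis) of the 10 tested kinase probe sets, with points for the estimate and bars for the 95% confidence interval from limma; the vertical line marks no difference. The interval of Camk2a 1388187_at runs from 0.15 to 1.04 and lies above 0, and those of the other 9 include 0.

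Other tissue markers also differed between the groups, and their part in the kinase values was not tested except as stated here. The mean of the 5 tested granule cell markers of 10 listed ran from 9.27 to 9.52 in learning rats and from 8.98 to 9.38 in control rats (exact permutation p = 0.00874, adjusted over 11 array-level measures 0.0481). Of these 5 markers, 4 were higher and 1 was lower in learning rats. Dsp differed by 0.44 and Prox1 by 0.08, while the brightest, Calb1, differed by -0.03. The mean of the 6 tested CA1 markers of 10 listed ran from 8.04 to 8.39 in learning rats and from 7.58 to 8.43 in control rats (exact permutation p = 0.0414, adjusted 0.114). Of these 6 markers, 4 were higher and 2 were lower in learning rats. Wfs1 differed by 0.95 ± 0.38 (SE) and by 0.43 on its other probe set, while the brightest, Crym, differed by -0.0069. The mean of the 6 tested microglial markers of 7 listed ran from 6.87 to 7.10 in learning rats and from 6.89 to 7.44 in control rats (exact permutation p = 0.0297, adjusted 0.109). In this list 1 marker was higher and 5 were lower in learning rats, with a median difference of -0.25. The brightest of them, Csf1r, differed by -0.06.

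The mean of the 2 tested choroid plexus markers of 6 listed, Ttr and Enpp2, ran from 6.34 to 6.61 in learning rats and from 6.67 to 7.98 in control rats, without overlap (exact permutation p = 0.000583, the smallest possible here, adjusted 0.00641). Ttr differed by -1.78 ± 0.36 and the brighter Enpp2 by -0.04 ± 0.08 (SE; adjusted p = 0.153 and 0.855 in limma), so Ttr set the difference of this mean. The gap between the 3' and 5' control probe sets for beta-actin, a measure of RNA integrity, ran from 1.27 to 1.58 in learning rats and from 1.21 to 1.47 in control rats (exact permutation p = 0.131, adjusted 0.287). The other 6 lists, of CA3 cells, interneurons, astrocytes, oligodendrocytes, endothelium and meninges, had exact permutation p values between 0.231 and 0.967. The difference of Camk2a 1388187_at was 0.74 with the CA1 mean as a covariate, 0.64 with the granule cell mean, 0.69 with the microglial mean and 0.51 with the beta-actin difference, with adjusted p values between 0.405 and 0.999 in limma. Camk2a 1389824_at differed by -0.019 with the CA1 mean, and 1368935_at by 0.10 with the granule cell mean and 0.11 with the microglial mean. Camk2g differed by 0.022 with the granule cell mean and by 3.15e-06 with the microglial mean. Camkk1 differed by 0.02 with the granule cell mean and by 0.03 with the microglial mean as covariate, and Camk1 by -0.08 and -0.14. Camk1 differed by -0.13 with the beta-actin difference. Camk2d differed by -0.15 with the CA1 mean and by -0.15 with the microglial mean (unadjusted p = 0.0921 and 0.111 in limma).

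The genes that varied most like each kinase from rat to rat, with group means removed, were found among 6697 genes by Pearson r over the 14 arrays. For Camk2a 1388187_at they were Maml1 (r = 0.79) and Lypla1 (r = 0.76). For 1389824_at they were Stk24 and Glrb (both r = 0.77), and for 1368935_at Uspl1 and Dlg2 (both r = 0.85). The 3 Camk2a probe sets thus had 6 different nearest genes. For the other members the nearest genes were Ppp1r16b (r = 0.90) and Paox (r = 0.87) for Camk2b, Meis2 and Zfr (both r = 0.83) for Camk2d, and Stard3nl (r = 0.86) and Tspyl4 (r = 0.83) for Camk2g. They were Ermp1 and Nelfe (both r = 0.82) for Camk1, Dohh (r = 0.90) and Parvb (r = 0.89) for Camkk1, and Tgfb1i1 (r = 0.85) and Znf740 (r = 0.85) for Camkk2. These are the highest values of a search over many genes and few arrays and are given as a description only.

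Genes that act with the kinases were counted in 6 lists with 62 tested genes of 77 listed. In limma 0 passed an adjusted p of 0.05. At an unadjusted p below 0.05, 6 were higher and 7 lower in learning rats, together 21.0%, where the share over all genes by their brightest probe set was 12.6%. The genes of these 6 lists were chosen with earlier results of these data known, so the shares are a description only. The median difference of the 62 genes was 0.0043 and their median absolute difference 0.10, against 0.0018 and 0.08 over all genes. The counts for these lists take each gene by its brightest probe set, and of the 26 dimmer tested probe sets of these genes 3 had an unadjusted p below 0.05, of which 2 were higher and 1 lower in learning rats. In each list the 2 genes of smallest p are named.

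Of 12 tested inhibitors and phosphatases of the kinases, 1 was higher and 2 were lower at an unadjusted p below 0.05. The 2 lower genes encode catalytic subunits of protein phosphatase 1, an enzyme that dephosphorylates the type II kinase. Ppp1cc was at 11.3, 11.4 and 11.5 in learning rats and at 11.4, 11.6 and 11.8 in control rats (lowest, median and highest of 7 each), a difference of -0.23 ± 0.06 (SE; adjusted p = 0.210 in limma). Ppp1cb was at 9.57, 9.86 and 10.3 in learning rats and at 9.99, 10.2 and 10.4 in control rats (lowest, median and highest of 7 each), a difference of -0.31 ± 0.11 (SE; adjusted p = 0.254 in limma). Ppp1ca, the other catalytic subunit of that enzyme in the list, had a higher mean in learning rats, at 0.14 ± 0.11 (SE; adjusted p = 0.569 in limma). The gene higher at an unadjusted p below 0.05 was Ppp3cb, a catalytic subunit of calcineurin, at 0.17 ± 0.07 (SE; adjusted p = 0.318 in limma) with -0.25 on its other probe set. Camk2n1, an inhibitor of the type II kinase, differed by -0.10 ± 0.10 on its brighter probe set and by -0.14 ± 0.22 on the other (SE; adjusted p = 0.682 and 0.806 in limma).

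Of 6 tested calcium sources, 1 was higher and 1 lower at that level. Itpr1, which encodes a calcium release channel of the endoplasmic reticulum, differed by 0.22 ± 0.07 (SE; limma adjusted p = 0.238), and Ryr2, the ryanodine-sensitive release channel, by -0.24 ± 0.10 (SE; adjusted p = 0.329). Of 16 synaptic anchors and substrates, 0 were higher and 3 lower. Gria1, an AMPA receptor subunit phosphorylated by the type II kinase, differed by -0.45 ± 0.16 (SE; adjusted p = 0.280). Its sign was opposite to that of Camk2a 1388187_at and 1368935_at and the same as that of Camk2a 1389824_at. Map2, a microtubule-associated protein of dendrites, differed by -0.15 ± 0.06 (SE; adjusted p = 0.332) and by 0.07 on its other probe set. The third was Tiam1, an activator of the GTPase Rac, at -0.33 ± 0.16 (SE; adjusted p = 0.382). Its unadjusted p in limma was 0.049998, so it is counted only by a very small margin. Mapt, the microtubule-associated protein tau, differed by more on a dimmer probe set, at 0.30 ± 0.08 (SE; unadjusted p = 0.00264, adjusted p = 0.210), with 0.17 ± 0.08 on its brightest (SE; adjusted p = 0.386) and -0.00068 on the other. Stx1a, a syntaxin of the release machinery, differed by 0.11 on its brightest probe set and by -0.40 ± 0.18 on a dimmer one (SE; unadjusted p = 0.0354, adjusted p = 0.349).

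Of 12 nuclear and metabolic targets, 3 were higher and 1 was lower. Crem, a CREB-related factor, differed by 0.22 ± 0.07 (SE; adjusted p = 0.251) and by 0.10 on its other probe set. Prkaa2, a subunit of the AMP-activated kinase downstream of the kinase kinases, differed by 0.24 ± 0.09 (SE; adjusted p = 0.311). Prkaa1, another subunit of that kinase in the list, differed by 0.07 ± 0.15 (SE; adjusted p = 0.860). The transcription factor Srf was the third higher gene, at 0.18 ± 0.08 (SE; adjusted p = 0.344), and the histone deacetylase Hdac4 the lower one, at -0.40 ± 0.18 (SE; adjusted p = 0.350). Of 7 calmodulin genes and calmodulin-sequestering proteins, 1 was higher and 0 were lower: Add1, a membrane skeleton protein, at 0.12 ± 0.05 (SE; adjusted p = 0.339), with -0.04 on its other probe set. Gap43, a calmodulin-binding growth cone protein, differed by -0.26 ± 0.14 (SE; adjusted p = 0.461) and by 0.09 on its other probe set. Of 9 related kinases and pseudokinases, 0 were higher or lower at that level by their brightest probe set. The probe sets of Dclk1, a microtubule-binding kinase, disagreed in sign. It differed by 0.02 on its brightest, by 0.27 ± 0.13 on a dimmer one (SE; unadjusted p = 0.0472, adjusted p = 0.375) and by -0.18 ± 0.10 on the other (SE; adjusted p = 0.450). Camkv, a pseudokinase of this family, differed by -0.11 ± 0.06 (SE; adjusted p = 0.491) and by -0.17 on its other probe set, and Mylk by -0.18 ± 0.17 (SE; adjusted p = 0.667).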

How the data were processed

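Dentate gyrus RNA of 14 rats, 7 per group, was hybridised to Affymetrix RAE230A arrays, 1 per rat, per the labels' protocols. The authors deposited log2 values per probe set from GCRMA, according to the submitters' processing notes; its version and the genome build are not stated in the sources used here. The method corrects background from probe sequence, normalizes arrays together and compresses differences near background. Sample titles gave the group and number of each array and name them biological replicates. No batch or scan date was used, and the number of arrays limits precision.

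Gene symbols came from the platform annotation, checked through gene IDs against the RefSeq gene table of assembly GRCr8, with 0 symbols changed. Of 15866 probe sets other than 57 controls, 9387 had a mean of at least 4 and were fitted together with limma 3.58.1 in R 4.3.3 (learning minus control, no covariate, two-sided, Benjamini-Hochberg threshold 0.05). Within-array gaps of all same-gene pairs were fitted likewise. Correlations used 100000 permutations within groups, array-level measures two-sided exact permutation tests (Python 3.11.15, scipy 1.17.1), and both fits were tested on simulated data. Alternatives were other filters, normalizations, priors, weights, a floor at 3, a replicate block, covariates and each array left out.

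Named were all kinase probe sets, the 2 genes of smallest p per list, the 2 genes nearest each kinase, and, for marker lists set beside a kinase, the brightest gene. Camk2n1, Ppp1ca, Ppp3cb, Tiam1, Mapt, Prkaa1, Srf, Hdac4, Dclk1, Stx1a, Wfs1, Prox1, Dsp and Ttr fall outside this rule and were chosen after their values were seen. The kinases and all lists were chosen with earlier results of these data known.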

Additional observations from a re-analysis of the deposited data

Results flagged for a closer look

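In 30 groups of 7 arrays (15 probe sets, 2 groups each), 7 had a highest array set apart from the rest by more than 0.568 of the group's range. Chance alone flags about 5% of groups where values are normally distributed. Values near background need not be, and all groups come from the same 14 rats, so 7 of 30 is not read as an excess. Of the 7, 1 was in a tested probe set: Camk2a 1368935_at in control replicate 6, at 4.73 against 4.12 for the next array. The same rat stood apart in Camk2d 1371263_a_at, at 4.08 against 3.86. The other 5 were all in probe sets below the filter. Learning replicate 1 stood apart in Camk4 1369753_at, at 3.20, and in Camkk2 1375025_at, at 2.65. Control replicate 2 stood apart in Camk4 1369752_a_at, at 3.81, and in Camkk2 1375025_at, at 2.52, and control replicate 7 in Camk4 1369753_at, at 3.69.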

How the results depend on the processing

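Camk2a 1388187_at stayed higher in learning rats under each of the 27 alternatives run for it, from 0.49 without control replicate 7 to 0.74 with the CA1 covariate. No alternative left out more than 1 array, while control replicates 1, 2 and 7 were the lowest rats in this probe set, at 9.26, 9.46 and 9.17. Its difference without these rats together was not computed. It passed the adjusted threshold under none of the 27. The count of tested probe sets past that threshold was 0 to 1 with an array left out. Kinase probe sets at an unadjusted p below 0.05 numbered 1 to 2 higher and 0 to 1 lower with an array left out. The lower one was Camk1, without learning replicate 4 or control replicate 3, and also with the replicate block (1 probe set). The second higher one was Camkk1 without learning replicate 1 and Camk2a 1368935_at without control replicate 6. Same-gene pairs past the threshold numbered 7; they were 0 to 17 with an array left out, 11 with array weights, with the replicate block or with the meningeal covariate, 1 with the beta-actin covariate and 0 with the CA1, granule cell or microglial covariate, the last 2 chosen after seeing the data. The Camk2a pair of 0.74 was 0.56 without control replicate 7 and 0.85 without control replicate 5. Differences near 0 changed sign: Camk2b 1398251_a_at was -0.0033 with the meningeal and -0.026 with the microglial covariate, Camk2b 1375575_at was -0.0029 with the microglial, and Camkk2 1368753_at was -0.10 with the granule cell and -0.091 with the microglial covariate. With an array left out they ran from -0.022 to 0.056 for Camk2b 1398251_a_at and from -0.041 to 0.071 for Camkk2. The cause was not tested. Same-numbered rats of the groups had deviations correlated between -0.28 and 0.26, so the numbers were not taken as pairs, and with the replicate block the count past the threshold over all tested probe sets was again 0. Few arrays and values near background (Camk4, 2 Camk2d and 1 Camkk2 probe sets) limit what can be seen.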

Other observations

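The 2 brighter Camk2a probe sets had a Pearson r of 0.53 in learning rats (exact p = 0.234, n = 7) and of -0.46 in control rats (exact p = 0.298, n = 7), with rho of 0.39 (exact p = 0.396) and -0.43 (exact p = 0.354). Without the 2 farthest arrays r was 0.04 in learning rats and -0.37 in control rats. These are 2 of 8 within-group relations computed for probe sets of the same kinase gene, and the smallest p for r among the 8 was 0.234. The control rats fall into a set of 4 and a set of 3 by their gap between these probe sets, and no label names a difference between those rats.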
